A study of Ogataea parapolymorpha DL-1 with 4 samples.

Results

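Eukaryotic ribosomes are built in the nucleolus by a large set of assembly factors, and the genes for these factors were followed here in the methylotrophic yeast Ogataea parapolymorpha. Genes were taken by their product description, which had to contain "rRNA", "ribosome biogenesis", "ribosome assembly", "nucleolar" or "pre-ribosom" and not "mitochondrial". This wording took 85 of 5448 rows of the expression table. Every one of the 85 reached 1 FPKM on average across the libraries, as 5342 rows in all did, and these rows were compared. The description text is the only basis of the choice, so assembly factors described in other words are not among the 85 and are given separately. Ribosomal proteins, which these factors put together with rRNA, are a further set of genes.

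Ribosome assembly starts on the primary rRNA transcript, where box C/D ribonucleoproteins guide methylation of the rRNA and the U3 ribonucleoprotein joins the UTP complexes to form the small subunit processome. Cleavage of the transcript separates precursors of the small and the large subunit, which mature on their own paths with the help of GTPases, helicases, methyltransferases and dedicated chaperones of single ribosomal proteins, and are exported to the cytoplasm for the last steps. In budding yeast the genes for these factors are known as one of the largest sets that are expressed together, with high expression in fast growth. The roles given below are those of the budding yeast proteins of the same names, unless another species is named.

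Cultures were of a met4 mutant (leu2 met4::LEU2) in B medium, labelled as limited in sulfur, and in B medium with 0.5 mM cysteine, and of the wild type (leu2 [LEU2]) in the same B medium and in B medium with 0.5 mM cysteine. Both strains have the DL-1 background and are labelled leu2 with LEU2, which in the mutant stands in the place of met4. Cultures were inoculated at an OD600 of 0.1 in rich YPD broth, collected at 0.3, and kept in the test medium for 2 h before total RNA was taken. The comparisons ask how expression depends on a sulfur source in each strain, and on the met4 mutation in each medium.

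Each of the 4 groups held 1 library, so there was no replicate, no difference could be set against replicate error, and no test was made. Values were the authors' FPKM, fragments scaled to gene length and to the fragments mapped in the library, which hold no read counts, so the depth and the counting error are unknown. FPKM is a share of the RNA of a library, so less RNA of a gene per cell cannot be told apart from more RNA of other genes. A transcription factor row, zip1 (HPODL_03459), was listed at 0 in both mutant libraries and had 485 FPKM in wild-type B medium and 202 FPKM in wild-type cysteine medium. It was read as the deleted gene after these values were seen. LEU2 had 696 FPKM in mutant B medium and 810.5 FPKM in mutant cysteine medium, against 403 FPKM and 396 FPKM in the wild type in the same media. Libraries differed in composition, and rows under 400 bases held 24.5% and 19.4% of the summed FPKM of the mutant libraries in B and cysteine medium, against 56.2% and 48.2% in the wild type.

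Few of the ribosome biogenesis genes passed 2-fold on the deposited scale. Their median lay close to that of all rows between the media in the wild type and between the strains with cysteine. It was 0.25 higher than that of all rows between the media in the mutant and 0.30 higher between the strains in B medium. Differences are between values of log2(FPKM + 1), and a gene is counted as higher or lower where it differed by 2-fold or more. In mutant B medium against mutant cysteine medium, 9 of the 85 genes were higher and 1 lower, where 13.3% of all rows were higher and 12.1% lower. Their median difference was 0.29, against 0.044 for all rows. Above 0 were 61 of the 85 genes, where 2800 of all 5342 rows were. In wild-type B medium against wild-type cysteine medium, 5 genes were higher and 3 lower, where 23.6% of all rows were higher and 13% lower. The median there was 0.19, against 0.19 for all rows.

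The mutant and the wild type in B medium differed by 2-fold or more in 4 genes that were higher and 4 that were lower in the mutant, where 10.5% of all rows were higher and 24.9% lower. The members' median was 0.032, against -0.27 for all rows. With cysteine, 1 gene was higher and 3 were lower in the mutant, where 6.85% of all rows were higher and 7.41% lower, and the median was -0.18, against -0.10. The medium difference of the mutant exceeded that of the wild type by 2-fold or more in 4 genes and was smaller by as much in 4, where 11.2% and 22.2% of all rows did so. The median of this difference of responses was 0.28 for the 85 genes, against -0.20 for all rows. Scaling changed these counts most between the strains. With each library scaled to the same sum (TPM), 52 of the 85 genes were higher and 0 lower in the mutant in B medium, and 44.3% of all rows were higher and 6.29% lower. With median-of-ratios scaling 7 were higher and 2 lower there, where 14.9% of all rows were higher and 18.8% lower. TPM scaling gave 12 higher and 1 lower between the strains with cysteine, where 27.7% of all rows were higher and 2.21% lower. Between the media in the wild type TPM scaling gave 1 higher and 9 lower, where 14.1% of all rows were higher and 21.1% lower. It moved the median of all rows by 1.14 between the strains in B medium, by 0.76 with cysteine, by -0.44 between the media in the wild type and by -0.079 in the mutant. Set against all rows, the members' median between the strains in B medium was 0.30 higher as deposited and 0.18 higher with the running median of rows of like span removed, and that of the difference of responses was 0.49 and 0.37 higher in the same order. Counts of lists and values of single genes below are on the deposited scale unless another is named. Orders of libraries given for single genes are on that scale too, and some change under TPM scaling.

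**Figure D1:**
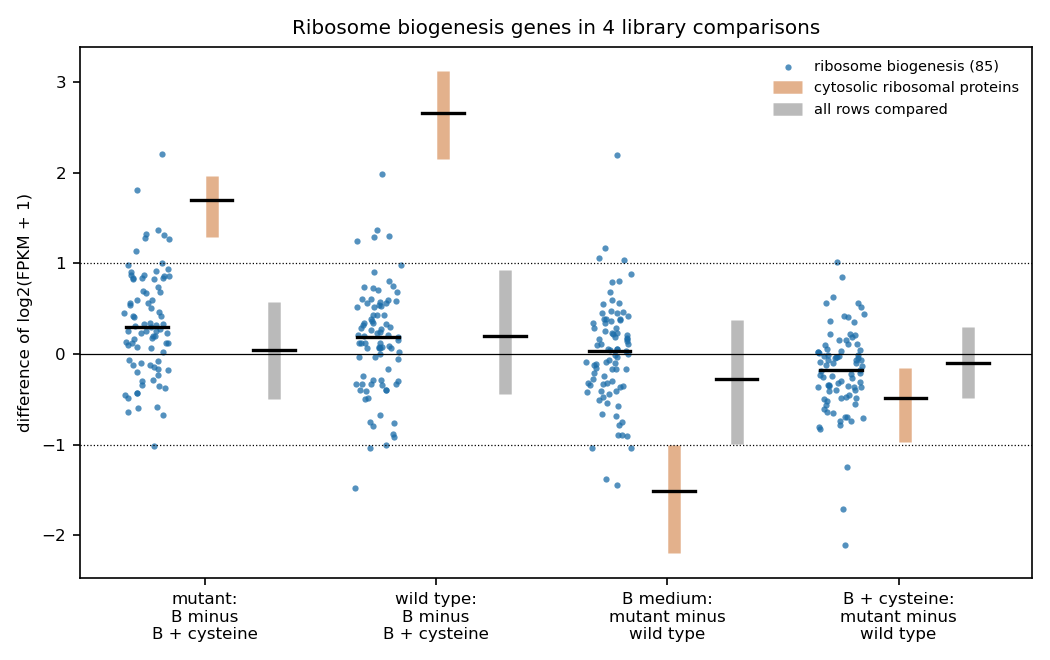
The vertical axis shows the difference of log2(FPKM + 1) in 4 comparisons, from left to right B medium against cysteine medium in the mutant and in the wild type and the mutant against the wild type in B medium and in cysteine medium. Blue points are the 85 ribosome biogenesis genes, bars are interquartile ranges of cytosolic ribosomal protein genes and of all rows, and black lines are medians, at 0.29, 0.19, 0.032 and -0.18 for the biogenesis genes in that order.

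The 80 cytosolic ribosomal protein genes had another pattern from the factors that assemble their products. In the mutant, 71 of 80 were higher in B medium than with cysteine (median 1.69), and in the wild type 78 of 80 were (median 2.65), with 0 lower in either strain. Of all rows, 13.3% and 23.6% were higher. TPM scaling left 67 and 74 of them higher. The median ribosomal protein gene had 1433 FPKM in mutant B medium and 473 FPKM in mutant cysteine medium, against 4074 FPKM in wild-type B medium and 635 FPKM in wild-type cysteine medium. The median biogenesis gene had 51.6 FPKM and 44.0 FPKM in the mutant in B and cysteine medium, and 51.9 FPKM and 45.4 FPKM in the wild type. In the mutant against the wild type in B medium, 60 of the ribosomal protein genes were lower and 1 higher (median -1.51). Of all rows 24.9% were lower, and of rows under 600 bases 52.7%. This count depended on the processing, with 20 lower and 3 higher under TPM scaling (median -0.32). Of all rows, 6.29% were then lower and 44.3% higher (median 0.87, against -0.27 as deposited). The list thus lay below all rows on both scales. With the running median of rows of like span removed, 21 were lower and 4 higher (median -0.68), where 16% of all rows were lower and 15% higher. Ribosomal protein genes are short, with a median span of 520.5 bases against 1485 for the biogenesis genes and 1200 for all rows, and the strain differences carried a trend with span that is given below.

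On the deposited scale the biogenesis genes varied less over the 4 libraries than all rows did. The range of a gene over the libraries had a median of 0.85 log2 units for the 85 genes (interquartile range 0.56 to 1.17), against 1.28 for all rows (0.80 to 2.02) and 3.21 for cytosolic ribosomal protein genes. Within 2-fold in each of the 4 pair comparisons were 64 of the 85 genes (75.3%), where 41.1% of all rows were. Among genes of at least 600 bases these were 60 of 77 (77.9%), where 44.5% of all such rows were. Under TPM scaling 26 of the 85 genes (30.6%) were within 2-fold in all 4 comparisons, where 25.7% of all rows were, and the median range was 1.33 for the 85 genes against 1.61 for all rows. Under the other alternatives the share of members within 2-fold was between 70.6% and 81.2%. The smallest ranges belonged to UTP13 (0.17), a UTP-B subunit, FCF2 (0.18), an early cleavage factor, and IMP4 (0.24), of the Mpp10 complex. UTP13 had 19.5 FPKM in mutant B medium and 21.3 FPKM in mutant cysteine medium, against 22.1 FPKM in wild-type B medium and 20.8 FPKM in wild-type cysteine medium. At least 1 of the 4 comparisons passed 2-fold for the other 21 genes, where this was so for 58.9% of all rows. The largest ranges belonged to FYV7 (2.29), BMS1 (2.21), SQT1 (2.20) and SLX9 (2.07).

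The mutant cysteine library held the lowest value of 42 of the 85 genes (49.4%), where it did so for 27.6% of all rows, and the mutant B library held the highest value of 31 (36.5%), where it did so for 21.5% of all rows. Scaling moved the first of these counts more than the second. With median-of-ratios scaling the mutant cysteine library was lowest for 27 genes (31.8%, all rows 20.9%), with TPM scaling for 2 (2.35%, all rows 4.77%). The mutant B library was highest for 40 genes (47.1%, all rows 25.4%) and 58 genes (68.2%, all rows 39.2%) under the same settings. The other 2 libraries, wild-type B and wild-type cysteine medium, held the highest value of 30 and 18 genes as deposited. Mean levels ran from 3.90 FPKM for UTP20, a very large processome protein, to 523 FPKM for RSA3, with a median of 51.0 FPKM against 74.6 FPKM for all rows.

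**Figure D2:**
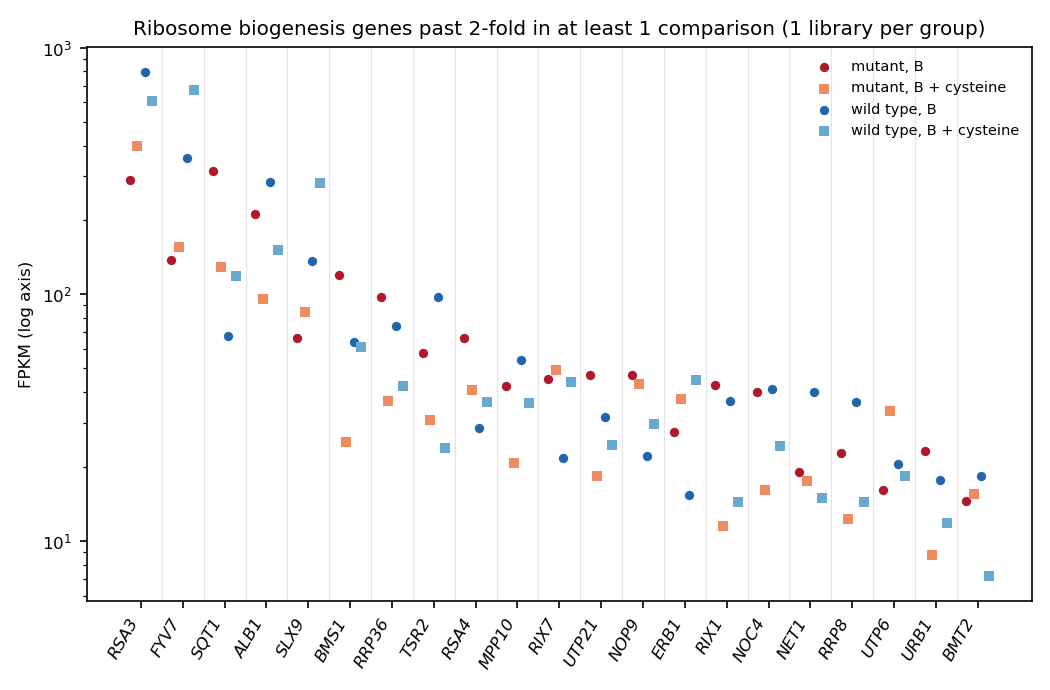
FPKM in each library, on a log axis, of the 21 genes that differed by 2-fold or more in at least 1 of the 4 pair comparisons, with 1 point per library and the mutant libraries left of the wild-type ones. SQT1 stands apart in mutant B medium (315 FPKM), and FYV7 and SLX9 lie lower in both mutant libraries than in both wild-type libraries on the deposited scale, though for SLX9 in B medium the sign turns under other scalings.

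The 3 core proteins of box C/D ribonucleoproteins were among the most highly expressed members, and each was higher in B medium than with cysteine in both strains without reaching 2-fold. NOP1, the fibrillarin methyltransferase that modifies rRNA, had 377 FPKM in mutant B medium and 284 FPKM in mutant cysteine medium, against 484 FPKM in wild-type B medium and 286 FPKM in wild-type cysteine medium. Its 2 values in B medium were thus the highest, and the cysteine libraries were nearly equal. NOP56 had 224 FPKM in B medium and 123 FPKM with cysteine in the mutant, and 250.1 FPKM in B medium and 126 FPKM with cysteine in the wild type, and NOP58 had 233 FPKM in mutant B medium and 186 FPKM in mutant cysteine medium, against 433 FPKM in wild-type B medium and 260.5 FPKM in wild-type cysteine medium. Both are scaffold proteins of these particles. Their medium differences in the mutant were 0.41 for NOP1, 0.86 for NOP56 and 0.32 for NOP58, and in the wild type 0.76, 0.98 and 0.73 in the same order. NOP58 was the most different between the strains in B medium, at -0.89 as deposited and up to 0.29 under the alternatives. SNU13, the remaining core protein, which the description text did not take, had 1102 FPKM in B medium and 616 FPKM with cysteine in the mutant, and 731 FPKM in B medium and 571 FPKM with cysteine in the wild type.

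Among the 36 small subunit processome genes, 5 were higher and 1 lower in mutant B medium against mutant cysteine medium (median 0.37), a share of 13.9% higher where 13.3% of all rows were higher and 12.1% lower. In the wild type 0 passed 2-fold (median 0.10), where 23.6% of all rows were higher and 13% lower. The 5 higher genes were BMS1, RRP36, UTP21, NOC4 and MPP10, and the lower one was UTP6. BMS1 (HPODL_02701, chromosome VII from 584984 to 588373 on the plus strand) encodes a GTPase of the processome and had the largest medium difference of the 85 genes in the mutant. It had 119 FPKM in mutant B medium and 25.1 FPKM in mutant cysteine medium, against 64.1 FPKM in wild-type B medium and 61.0 FPKM in wild-type cysteine medium. The 2 wild-type libraries were nearly equal and lay between the 2 mutant libraries, with a medium difference of 2.21 in the mutant and 0.069 in the wild type. The mutant was higher than the wild type in B medium, at 0.89, and lower with cysteine, at -1.25. RCL1, which joins the pre-ribosome together with BMS1 and lies outside the text rule, had 107 FPKM in B medium and 92.0 FPKM with cysteine in the mutant, and 82.6 FPKM in B medium and 83.0 FPKM with cysteine in the wild type.

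RRP36, needed for early cleavages of the rRNA precursor, had 97.3 FPKM in mutant B medium and 37.0 FPKM in mutant cysteine medium, against 74.4 FPKM in wild-type B medium and 42.2 FPKM in wild-type cysteine medium. The order of the libraries was the same in both strains, with B medium above cysteine medium, at 1.37 in the mutant and 0.80 in the wild type. UTP21, a UTP-B subunit, had 47.1 FPKM in B medium and 18.2 FPKM with cysteine in the mutant, and 31.8 FPKM in B medium and 24.5 FPKM with cysteine in the wild type, with mutant B medium highest and mutant cysteine medium lowest. NOC4, which pairs with NOP14, had 40.2 FPKM in mutant B medium and 16.1 FPKM in mutant cysteine medium, against 41.2 FPKM in wild-type B medium and 24.2 FPKM in wild-type cysteine medium. MPP10, which names the Mpp10 complex, had 42.3 FPKM in B medium and 20.6 FPKM with cysteine in the mutant, and 53.9 FPKM in B medium and 36.2 FPKM with cysteine in the wild type, and its medium difference in the mutant was just at the threshold (1.001). As deposited, all 4 of these genes had lower values in mutant than in wild-type cysteine medium, with differences of -0.19 for RRP36, -0.41 for UTP21, -0.56 for NOC4 and -0.78 for MPP10, of which those of RRP36, UTP21 and NOC4 turned positive under at least 1 other scaling or correction.

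UTP6, another UTP-B subunit, went the other way in the mutant. It had 16.1 FPKM in mutant B medium and 33.6 FPKM in mutant cysteine medium, against 20.4 FPKM in wild-type B medium and 18.3 FPKM in wild-type cysteine medium. The mutant cysteine library alone was high, and the medium differences were -1.02 in the mutant and 0.15 in the wild type. UTP5 of the UTP-A complex had 45.6 FPKM in B medium and 68.9 FPKM with cysteine in the mutant, and 57.9 FPKM in B medium and 108 FPKM with cysteine in the wild type, which put both cysteine libraries above both B libraries. UTP18, also of UTP-B, had 41.4 FPKM in B medium and 58.4 FPKM with cysteine in the mutant, and 39.9 FPKM in B medium and 64.3 FPKM with cysteine in the wild type and the same order of media. NOP6, a small subunit factor, had 89.0 FPKM in mutant B medium and 143 FPKM in mutant cysteine medium, against 79.6 FPKM in wild-type B medium and 105 FPKM in wild-type cysteine medium, with its highest value in mutant cysteine medium. NOP9, an RNA-binding protein of the small subunit precursor, was the one processome gene past 2-fold between the strains in B medium (1.06). It had 47.1 FPKM in B medium and 43.0 FPKM with cysteine in the mutant, and 22.1 FPKM in B medium and 29.7 FPKM with cysteine in the wild type, so that both mutant libraries were above both wild-type libraries. UTP30, a U3-associated protein, had 28.7 FPKM in mutant B medium and 44.0 FPKM in mutant cysteine medium, against 54.1 FPKM in wild-type B medium and 42.6 FPKM in wild-type cysteine medium, with medium differences of -0.60 in the mutant and 0.34 in the wild type. RRP3, a DEAD-box helicase of the same path, had 79.1 FPKM in B medium and 64.4 FPKM with cysteine in the mutant, and 71.4 FPKM in B medium and 43.3 FPKM with cysteine in the wild type, which put wild-type cysteine medium below the other libraries.

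Complexes differed in how far apart the medium differences of their subunits lay. The complexes were listed after the values had been seen. The 3 H/ACA core rows, none of them among the 85 genes, ran from 0.56 to 0.68 in the mutant and from 0.34 to 1.19 in the wild type, and the 4 box C/D core rows ran from 0.32 to 0.86 in the mutant and from 0.36 to 0.98 in the wild type. In the mutant, the 6 UTP-A rows ran from -0.58 to 0.87 (median 0.21), and the 6 UTP-B rows from -1.02 to 1.32 (median -0.099). In the wild type, UTP-A ran from -0.88 to 0.57 and UTP-B from -0.67 to 0.36. Within UTP-B, UTP13 had a difference of -0.12 in the mutant and 0.084 in the wild type, beside UTP21 at 1.32 and 0.36. The 3 Mpp10 complex rows differed likewise. IMP3 had 74.8 FPKM in B medium and 101 FPKM with cysteine in the mutant, and 112 FPKM in B medium and 140.4 FPKM with cysteine in the wild type, higher with cysteine in both strains, whereas MPP10 was higher in B medium in both. The 5 Noc proteins, NOC2, NOC3, NOC4, MAK21 and NOP14, had the narrowest spread in the mutant of the 4 complexes with at least 5 rows, from 0.42 to 1.27 (median 0.84), and ran from -0.056 to 0.74 (median 0.21) in the wild type. Each Noc protein had a larger difference in the mutant than in the wild type, by 0.33 to 0.78. This direction was common among the members, with 57 of the 85 genes larger in the mutant and a median of 0.28. Of all 5342 rows, 2223 were larger in the mutant, with a median of -0.20. MAK21, the NOC1 protein of the large subunit path, had 37.3 FPKM in mutant B medium and 20.3 FPKM in mutant cysteine medium, against 36.2 FPKM in wild-type B medium and 34.5 FPKM in wild-type cysteine medium, with the mutant cysteine library low and the other 3 nearly equal as deposited. Under TPM scaling mutant B medium was instead highest and wild-type B medium lowest for MAK21. NOC2, its partner, had 55.0 FPKM in B medium and 28.9 FPKM with cysteine in the mutant, and 48.8 FPKM in B medium and 39.7 FPKM with cysteine in the wild type.

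**Figure D3:**
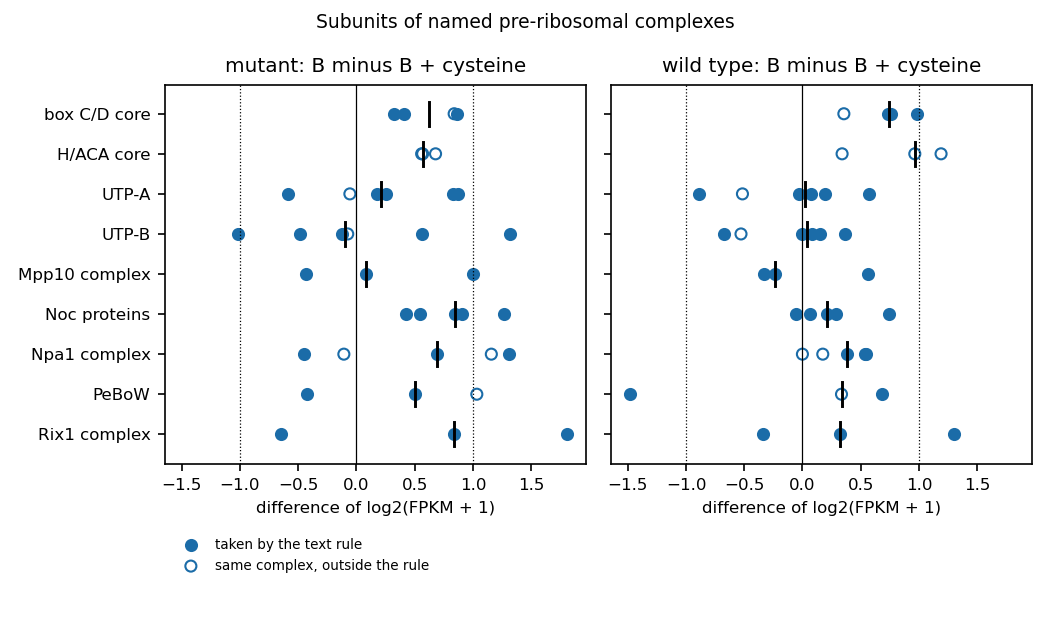
Each point is 1 gene, placed on the horizontal axis by its difference of log2(FPKM + 1) between B medium and cysteine medium, in the mutant (left panel) and the wild type (right panel), with 1 row per complex. Filled points are genes taken by the description text and open points other genes of the complex. The Noc proteins are all above 0 in the mutant, and UTP-B spreads from -1.02 to 1.32.

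Of the 8 small subunit maturation genes, 2 were lower by 2-fold or more in the mutant than in the wild type in both media, and they were the shortest of the 8. FYV7 (HPODL_05358, chromosome VII from 1082682 to 1083083 on the minus strand), an rRNA processing factor, had 137 FPKM in mutant B medium and 155 FPKM in mutant cysteine medium, against 358 FPKM in wild-type B medium and 674 FPKM in wild-type cysteine medium. SLX9 (HPODL_02757, chromosome VII from 677635 to 678009 on the plus strand), which takes part in maturation and export of the small subunit precursor, had 66.1 FPKM in B medium and 85.0 FPKM with cysteine in the mutant, and 137 FPKM in B medium and 281 FPKM with cysteine in the wild type. For both genes every mutant value was below every wild-type value, and the wild-type cysteine library was highest. The strain differences were -1.38 in B medium and -2.11 with cysteine for FYV7, and -1.04 and -1.71 for SLX9. They were the 2 members lower by 2-fold or more in the mutant in both media, where 4.98% of all rows were, and 0 members were higher in both, where 2.28% of all rows were. FYV7 spans 402 bases and SLX9 375, and rows under 600 bases had a median strain difference of -1.10 in B medium and -0.58 with cysteine. After subtraction of the running median of rows of like span, FYV7 was at 0 in B medium and -1.55 with cysteine, and SLX9 at 0.54 and -0.99. Over the alternatives the strain difference of SLX9 in B medium ran up to 0.54, so its sign there depends on the scaling, while with cysteine it stayed between -1.73 and -0.92, and that of FYV7 between -2.12 and -1.31. The part of gene length in these differences was not tested beyond this.

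TSR2 (HPODL_00607, chromosome III from 786988 to 787602 on the minus strand), a chaperone of the small subunit protein Rps26, had the largest medium difference of the 85 genes in the wild type. It had 57.5 FPKM in mutant B medium and 31.0 FPKM in mutant cysteine medium, against 97.2 FPKM in wild-type B medium and 23.7 FPKM in wild-type cysteine medium. B medium was above cysteine medium in both strains, at 0.87 in the mutant and 1.99 in the wild type. Its end overlaps the ftp105 row on the other strand by 4 bases, and reads of overlapping rows cannot be told apart where strand was not used. The other 5 maturation genes stayed within 2-fold. NOB1, the endonuclease that makes the mature end of the small subunit rRNA, had 90.4 FPKM in B medium and 78.6 FPKM with cysteine in the mutant, and 80.0 FPKM in B medium and 101 FPKM with cysteine in the wild type, and PNO1, its partner, had 48.4 FPKM in mutant B medium and 46.1 FPKM in mutant cysteine medium, against 69.1 FPKM in wild-type B medium and 45.4 FPKM in wild-type cysteine medium. TSR4, which accompanies the small subunit protein Rps2, and TSR3, which modifies the small subunit rRNA, were below the wild type in each medium as deposited, with differences of -0.48 in B medium and -0.35 with cysteine for TSR4 and of -0.17 and -0.35 for TSR3. The signs of these 4 differences turned under at least 1 alternative, with cysteine up to 0.43 for TSR4 and 0.44 for TSR3. NOB1, PNO1, TSR4 and TSR3 were described after their values had been seen.

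The label early was used broadly for large subunit genes and does not place each one, SQT1 included, at an early step. The 33 genes so listed held the largest strain difference of all members. In the mutant against the wild type in B medium, 3 were higher and 1 lower (median 0.055), and with cysteine 1 was higher and 0 lower (median -0.22). In B medium 9.09% of these genes were thus higher, near the 10.5% of all rows, and 3.03% lower, where 24.9% of all rows were, and with cysteine 6.85% of all rows were higher and 7.41% lower. SQT1 (HPODL_01801, chromosome VI from 1180837 to 1182051 on the minus strand), the dedicated chaperone of the large subunit protein uL16, had 315 FPKM in mutant B medium and 129 FPKM in mutant cysteine medium, against 67.9 FPKM in wild-type B medium and 119 FPKM in wild-type cysteine medium. Mutant B medium was more than 2-fold above each other library, and wild-type B medium was lowest. The strain difference was 2.20 in B medium and 0.11 with cysteine, and the medium difference was 1.28 in the mutant and -0.80 in the wild type. RSA4, a factor of nuclear pre-ribosomes that the AAA ATPase MDN1 acts on, had 66.2 FPKM in B medium and 40.7 FPKM with cysteine in the mutant, and 28.8 FPKM in B medium and 36.5 FPKM with cysteine in the wild type. It likewise was highest in mutant B medium and lowest in wild-type B medium, with a strain difference of 1.17 there. RIX7, an AAA ATPase that releases NSA1 from the precursor, had 45.3 FPKM in mutant B medium and 49.4 FPKM in mutant cysteine medium, against 21.6 FPKM in wild-type B medium and 44.2 FPKM in wild-type cysteine medium, and only wild-type B medium was low.

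ERB1 of the PeBoW complex had the most negative medium difference in the wild type, at -1.48. It had 27.7 FPKM in mutant B medium and 37.6 FPKM in mutant cysteine medium, against 15.4 FPKM in wild-type B medium and 44.7 FPKM in wild-type cysteine medium, with wild-type B medium lowest. YTM1 of the same complex had 28.3 FPKM in B medium and 19.6 FPKM with cysteine in the mutant, and 31.9 FPKM in B medium and 19.5 FPKM with cysteine in the wild type, higher in B medium in both strains. RIX1 (HPODL_01533, chromosome VI from 732465 to 734585 on the minus strand), which names a complex of the large subunit precursor, was the one member higher by 2-fold or more in B medium in both strains, where 6.65% of all rows were. TPM scaling left 0 members so, with RIX1 at 0.79 in the wild type. It had 42.8 FPKM in mutant B medium and 11.5 FPKM in mutant cysteine medium, against 36.9 FPKM in wild-type B medium and 14.4 FPKM in wild-type cysteine medium, so both B libraries were above both cysteine libraries, by 1.81 in the mutant and 1.30 in the wild type. Its complex partners differed from it. IPI1 had 79.8 FPKM in B medium and 44.2 FPKM with cysteine in the mutant, and 58.2 FPKM in B medium and 46.2 FPKM with cysteine in the wild type, and IPI3 had 54.8 FPKM in mutant B medium and 86.2 FPKM in mutant cysteine medium, against 45.7 FPKM in wild-type B medium and 58.1 FPKM in wild-type cysteine medium. IPI1 was higher and IPI3 lower in B medium than with cysteine in both strains.

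URB1, of the Npa1 complex, had 23.2 FPKM in mutant B medium and 8.76 FPKM in mutant cysteine medium, against 17.7 FPKM in wild-type B medium and 11.9 FPKM in wild-type cysteine medium, with mutant B medium highest and mutant cysteine medium lowest. RSA3 (HPODL_01879, chromosome VI from 1324400 to 1324858 on the minus strand), a small protein of the same complex with the highest mean level of the 85 genes, had the lowest difference between mutant and wild-type B medium (-1.45). It had 291 FPKM in B medium and 398 FPKM with cysteine in the mutant, and 794 FPKM in B medium and 608 FPKM with cysteine in the wild type, and every mutant value was below every wild-type value. RSA3 spans 459 bases, and its strain difference was -0.55 in B medium once the running median of rows of like span was subtracted. With cysteine the difference of RSA3 was -0.61 as deposited and 0 after this subtraction, and it ran up to 0.19 over the alternatives. NOP12, also of the large subunit path, had 58.4 FPKM in mutant B medium and 61.5 FPKM in mutant cysteine medium, against 110.3 FPKM in wild-type B medium and 72.1 FPKM in wild-type cysteine medium, with wild-type B medium above the other 3 as deposited. Under TPM scaling NOP12 was instead higher in both mutant libraries than in wild-type B medium. EBP2, a large subunit factor, had 83.7 FPKM in B medium and 66.1 FPKM with cysteine in the mutant, and 135 FPKM in B medium and 118 FPKM with cysteine in the wild type, and NOP16, another, had 121 FPKM in mutant B medium and 99.3 FPKM in mutant cysteine medium, against 208 FPKM in wild-type B medium and 175 FPKM in wild-type cysteine medium. For both genes each mutant value was below each wild-type value, with strain differences of -0.68 and -0.83 for EBP2 and -0.78 and -0.81 for NOP16 in B and cysteine medium on the deposited scale. In B medium both turned positive under at least 1 alternative, up to 0.49 for EBP2 and 0.40 for NOP16. RLP24, a ribosomal protein-like placeholder, had 185 FPKM in B medium and 194 FPKM with cysteine in the mutant, and 238 FPKM in B medium and 314 FPKM with cysteine in the wild type. NSA1, a large subunit precursor protein, had 32.1 FPKM in mutant B medium and 25.1 FPKM in mutant cysteine medium, against 24.7 FPKM in wild-type B medium and 15.9 FPKM in wild-type cysteine medium, with the mutant higher in both media.

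Methyltransferases of the large subunit rRNA gave some of the larger wild-type medium differences. RRP8 had 22.7 FPKM in mutant B medium and 12.2 FPKM in mutant cysteine medium, against 36.7 FPKM in wild-type B medium and 14.4 FPKM in wild-type cysteine medium, higher in B medium in both strains. BMT2 had 14.5 FPKM in B medium and 15.5 FPKM with cysteine in the mutant, and 18.4 FPKM in B medium and 7.19 FPKM with cysteine in the wild type, and its wild-type cysteine library alone was low. The medium difference of BMT2 was -0.095 in the mutant and 1.24 in the wild type, and it was the one member past 2-fold higher in the mutant with cysteine (1.01). Its row overlaps the BER1 row on the other strand by 11 bases. SPB1, which methylates rRNA riboses, had 20.2 FPKM in mutant B medium and 24.0 FPKM in mutant cysteine medium, against 22.0 FPKM in wild-type B medium and 31.2 FPKM in wild-type cysteine medium, lower in B medium in both strains, and was chosen after its values had been seen. The 2 late large subunit factors also differed. ALB1, a shuttling protein that leaves the precursor in the cytoplasm, had 211 FPKM in B medium and 95.8 FPKM with cysteine in the mutant, and 284 FPKM in B medium and 151 FPKM with cysteine in the wild type, with B medium above cysteine medium in both strains. The row ria1, named after the fission yeast GTPase that acts on cytoplasmic precursors, had 68.0 FPKM in mutant B medium and 86.3 FPKM in mutant cysteine medium, against 51.9 FPKM in wild-type B medium and 88.1 FPKM in wild-type cysteine medium, with B medium below cysteine medium in both.

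The remaining 3 genes are tied to the nucleolus or to ribosomal genes by their descriptions without a role on the assembly path. NET1, which anchors a silencing complex in the nucleolus, had 19.1 FPKM in mutant B medium and 17.5 FPKM in mutant cysteine medium, against 40.1 FPKM in wild-type B medium and 14.9 FPKM in wild-type cysteine medium. Its wild-type B value alone was high as deposited, with medium differences of 0.12 in the mutant and 1.37 in the wild type. Over the settings the wild-type medium difference of NET1 ran from 0.86 to 1.42. Its strain difference in B medium ran from -1.07 to 0.11, so the sign there depends on the scaling. FHL1, a forkhead factor that binds promoters of ribosomal protein genes, had 38.8 FPKM in B medium and 25.2 FPKM with cysteine in the mutant, and 35.8 FPKM in B medium and 23.5 FPKM with cysteine in the wild type. The medium difference of FHL1 was 0.60 in the mutant and 0.59 in the wild type as deposited, and over the alternatives it ran down to 0.51 in the mutant and to 0.12 in the wild type. NPL3, an mRNA-binding protein that shuttles between nucleus and cytoplasm, had 354 FPKM in mutant B medium and 434 FPKM in mutant cysteine medium, against 419 FPKM in wild-type B medium and 429 FPKM in wild-type cysteine medium, and its 4 values spanned 0.29 log2 units.

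The medium differences of the 85 genes in the 2 strains, which come from separate libraries, had a Pearson correlation of 0.49 and a Spearman correlation of 0.54 across genes, against 0.50 and 0.47 for all 5342 rows. Genes are not independent replicates, and no p-value is attached. The sign was the same in both strains for 62 of the 85 genes (72.9%), against 66.4% of all rows. The 44 small subunit genes had a Pearson correlation of 0.56 and the 35 large subunit genes 0.47. The strain differences in the 2 media had a Pearson correlation of 0.38 and the same sign for 47 genes (55.3%), against 0.35 and 60.1% for all rows. Opposite signs with 2-fold or more in each strain occurred in 0 members, where 1.1% of all rows had them.

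**Figure D4:**
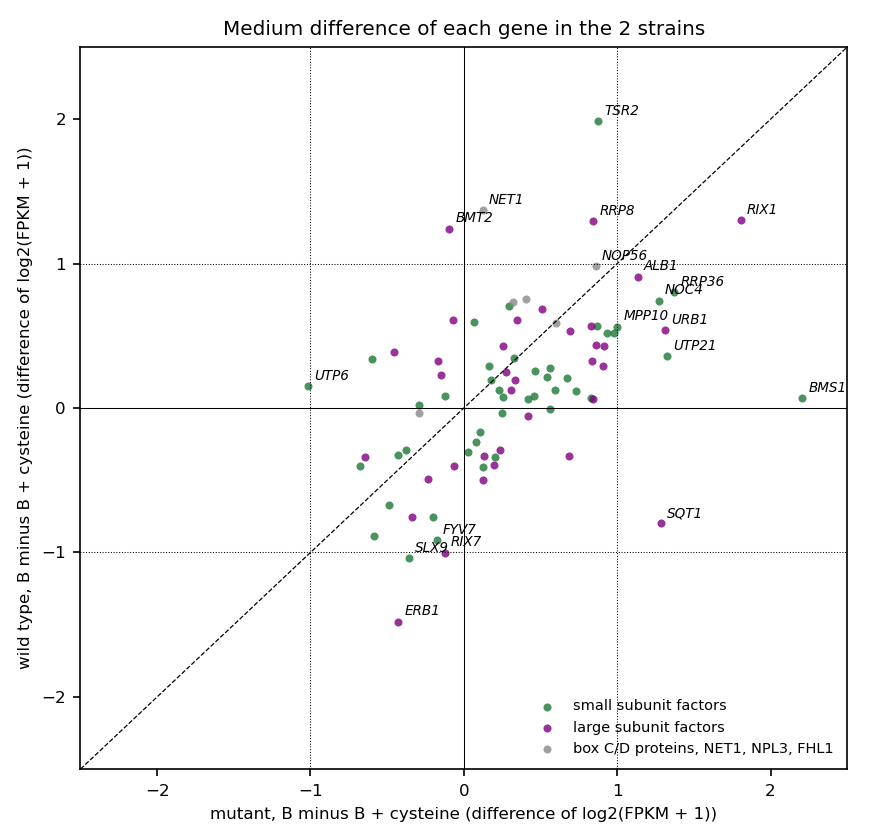
Each point is 1 of the 85 genes, with the difference of log2(FPKM + 1) between B medium and cysteine medium in the mutant on the horizontal axis and in the wild type on the vertical axis, coloured by path. RIX1 is past 2-fold in both strains, BMS1 only in the mutant (2.21 against 0.069), and SQT1 is above 0 in the mutant and below it in the wild type.

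Assembly factors whose descriptions held other words likewise had few genes past 2-fold. Of 111 such genes, 11 were higher (9.91%) and 1 lower in mutant B medium against mutant cysteine medium, where 13.3% of all rows were higher and 12.1% lower, with a median of 0.24 against 0.29 for the 85 genes. In the wild type 5 were higher and 5 lower, where 23.6% of all rows were higher and 13% lower, and the median was -0.0065, against 0.19 for the 85 genes and 0.19 for all rows. In the mutant against the wild type in B medium, 6 were higher and 3 lower (median 0.0066), where 10.5% of all rows were higher and 24.9% lower. With cysteine 1 was higher and 3 were lower, where 6.85% of all rows were higher and 7.41% lower, and the median was -0.27, against -0.18 for the 85 genes. A pair of these genes had larger medium differences in the mutant than any member. FAL1, a helicase of early small subunit cleavages, had 966 FPKM in mutant B medium and 176 FPKM in mutant cysteine medium, against 317 FPKM in wild-type B medium and 330.2 FPKM in wild-type cysteine medium. RRP15, of the large subunit path, had 680.3 FPKM in B medium and 138 FPKM with cysteine in the mutant, and 201 FPKM in B medium and 210.5 FPKM with cysteine in the wild type. In both, mutant B medium was far above the other libraries and the 2 wild-type libraries were nearly equal, with medium differences in the mutant of 2.45 for FAL1 and 2.29 for RRP15. BMS1 likewise was highest in mutant B medium and lowest in mutant cysteine medium. A pair of further large subunit rows, chosen after their values were seen, were highest in mutant B medium as SQT1 was. SYO1, an import chaperone of ribosomal proteins, had 252 FPKM in mutant B medium and 111 FPKM in mutant cysteine medium, against 109 FPKM in wild-type B medium and 161 FPKM in wild-type cysteine medium, and REH1, a cytoplasmic factor, had 520.0 FPKM in B medium and 165 FPKM with cysteine in the mutant, and 155 FPKM in B medium and 366 FPKM with cysteine in the wild type.

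Genes for RNA polymerase I had a larger median medium difference in the wild type than in the mutant on the deposited scale. The order turned under TPM scaling, with medians of 0.32 in the mutant and 0.25 in the wild type. All rows then had medians of -0.035 and -0.25, so the list still lay further above all rows in the wild type. As deposited it lay 0.36 above the median of all rows in the mutant and 0.53 above it in the wild type. Of 18 such genes, subunits shared with other polymerases included, 2 were higher and 0 lower in mutant B medium against mutant cysteine medium (median 0.40), and 6 higher and 0 lower in the wild type (median 0.73). These are 11.1% and 33.3% higher, where 13.3% and 23.6% of all rows were. RRN7, of the polymerase I initiation factors, had 32.6 FPKM in mutant B medium and 25.2 FPKM in mutant cysteine medium, against 132 FPKM in wild-type B medium and 16.0 FPKM in wild-type cysteine medium. HMO1, a high mobility group protein of rRNA genes, had 239.6 FPKM in B medium and 237 FPKM with cysteine in the mutant, and 1021 FPKM in B medium and 185 FPKM with cysteine in the wild type, and the subunit RPA12 had 45.9 FPKM in mutant B medium and 31.9 FPKM in mutant cysteine medium, against 174 FPKM in wild-type B medium and 52.8 FPKM in wild-type cysteine medium. Wild-type B medium was the high library for all 3 genes, by 2.96 for RRN7, 2.46 for HMO1 and 1.70 for RPA12 over wild-type cysteine medium. RPA135, the second largest subunit, was highest in mutant B medium instead, with 108 FPKM in B medium and 19.9 FPKM with cysteine in the mutant, and 46.8 FPKM in B medium and 29.0 FPKM with cysteine in the wild type. The strain difference of the list in B medium had 2 genes higher and 7 lower (median -0.73). Of all rows, 10.5% were higher and 24.9% lower. TPM scaling gave 6 higher and 1 lower (median 0.43), where 44.3% of all rows were higher and 6.29% lower (median 0.87). The median of the list was below that of all rows on both scales, at -0.73 against -0.27 as deposited. Of 14 RNA polymerase III genes, 2 were higher in B medium in the mutant (14.3%) and 4 in the wild type (28.6%), with 0 and 1 lower, which is near the shares of all rows higher. Among 11 regulators of these genes, KOG1, a subunit of the TORC1 kinase complex, had 15.2 FPKM in mutant B medium and 7.20 FPKM in mutant cysteine medium, against 17.1 FPKM in wild-type B medium and 4.73 FPKM in wild-type cysteine medium, and STB3, which binds a promoter element of assembly factor genes, had 304 FPKM in B medium and 84.7 FPKM with cysteine in the mutant, and 133 FPKM in B medium and 131 FPKM with cysteine in the wild type. KOG1 was higher in B medium in both strains, and STB3 was high in mutant B medium alone.

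Gene span moved with the strain difference. The 85 genes had a median span of 1485 bases (375 to 7095), and across them the Spearman correlation of span with the difference between mutant and wild type was 0.42 in B medium and 0.0043 with cysteine, against 0.23 and 0.16 for all rows. The 8 members under 600 bases had a median difference of -0.50 in B medium and -0.63 with cysteine, with 3 (37.5%) and 2 (25%) of them lower by 2-fold or more, where 52.7% and 30.8% of all rows under 600 bases were. The 77 longer members had medians of 0.051 and -0.12, against -0.17 and -0.052 for all rows of at least 600 bases. In B medium 4 of them were higher (5.19%) and 1 lower (1.30%), where 11.2% and 20.1% of all such rows were. With the running median of rows of like span removed, 6 of the 85 members were higher and 0 lower in mutant against wild-type B medium. Of all rows, 15% were higher and 16% lower. SQT1 was at 2.40 after this, against 2.20 before it.

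**Figure D5:**
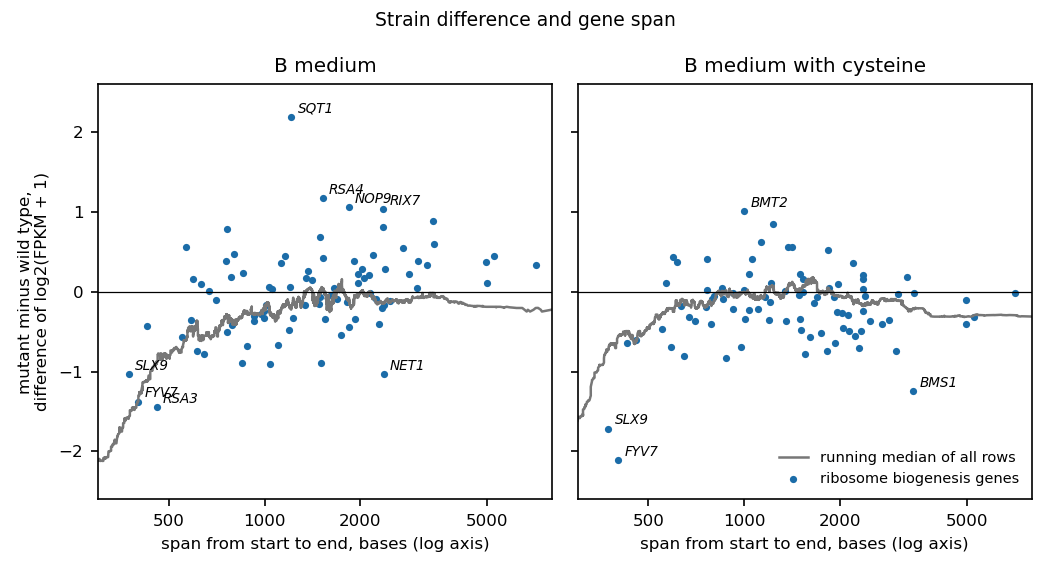
The difference of log2(FPKM + 1) between mutant and wild type (vertical axis) against gene span in bases on a log axis, in B medium (left) and with cysteine (right). Points are the 85 genes and the line is the running median of all rows by span, which lies lower for short rows. FYV7 and SLX9 are the members lower by 2-fold or more in both panels, and SQT1 is far above the line in B medium.

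The members lay on all 7 chromosomes, from 8 on chromosome II to 18 on chromosome VI, and 2 pairs were direct neighbours. LCP5 and NSA2 on chromosome V are divergent with 97 bases between them. LCP5, a U3 ribonucleoprotein factor, had 51.6 FPKM in mutant B medium and 26.5 FPKM in mutant cysteine medium, against 62.9 FPKM in wild-type B medium and 43.6 FPKM in wild-type cysteine medium, and NSA2, a large subunit factor, had 191 FPKM in B medium and 166 FPKM with cysteine in the mutant, and 167 FPKM in B medium and 220.0 FPKM with cysteine in the wild type. The pair shared no order of libraries. NOC4 and RIX1 on chromosome VI lie on the same strand with 492 bases between them, and both were higher in B medium in both strains. RLP7 on chromosome I is the neighbour of LEU2, the marker used to replace met4, and had 218 FPKM in mutant B medium and 185 FPKM in mutant cysteine medium, against 156 FPKM in wild-type B medium and 191 FPKM in wild-type cysteine medium, a range of 0.48 log2 units over the 4 libraries. In the authors' deposited table, 0 of the 85 genes carried a yes mark for a difference in any of the 4 pairings of a mutant with a wild-type library, where 0.239% of all rows were marked between the strains in B medium and 1.05% with cysteine, and 0.202% and 0.239% in the pairings of different media.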

How the data were processed

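RNA sequencing of 4 libraries, 1 per group, was used. The FPKM values were made and deposited by the authors from Illumina libraries of total RNA extracted with hot phenol, per the labels' protocols. TopHat, Cuffdiff and Cufflinks 2.1.1 are named in the submitters' processing notes, without their settings. The sources used here do not give the genome build or the use of strand. The yes or no marks of the deposited table were made by the authors at a threshold of 0.05, per the file headers.

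Rows with a mean of at least 1 FPKM were compared by differences of log2(FPKM + 1), a log2 scale applied here to the deposited values as they stand, which understates the change of low genes. A difference of 2-fold or more was counted. With 1 library per group there was no test, and depth is unknown. Spans run from start to end, introns included. All 85 genes matched a locus tag and position of the RefSeq gene table (assembly Hansenula_2). The span trend is a running median over 100 rows on each side.

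Members and lists were chosen with earlier results of these data known. Named genes were the 6 highest and 6 lowest differences per comparison with a mean of at least 5 FPKM, the 3 largest differences per role, the 6 highest means, and 4 genes outside the description text in each medium comparison. Genes described beside them as partners in a complex or as neighbours were chosen after their values had been seen. Alternatives were pseudocounts of 0.1 and 5, no filter, a mean of at least 10 FPKM, median-of-ratios and TPM scaling, scaling to rows of at least 600 bases, and removal of the span trend. Computations used Python 3.11.15 with pandas 2.3.3, numpy 2.4.6, scipy 1.17.1 and matplotlib 3.10.9, and were tested on simulated data. A search for promoter motifs was planned and not made, because promoter sequences were not used here.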

Additional observations from a re-analysis of the deposited data

Results flagged for a closer look

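For 4 of the 85 genes the medium difference had opposite signs in the 2 strains and the strains were at least 2-fold apart as deposited. Each rests on 1 library per group, and the difference between the strains was not tested. Of the 8 members past 2-fold in the difference of responses as deposited, 2 were so under every setting. SQT1, the chaperone of the large subunit protein uL16, was higher in B medium than with cysteine in the mutant (1.28) and lower in the wild type (-0.80), a difference of responses of 2.08. RSA4, a nuclear large subunit factor, did likewise, with 0.69 in the mutant and -0.33 in the wild type, a difference of 1.02. BMT2, a methyltransferase of the large subunit rRNA, had -0.095 in the mutant and 1.24 in the wild type, a difference of -1.34. UTP6, of the small subunit processome, had -1.02 in the mutant and 0.15 in the wild type, a difference of -1.17. Its wild-type value ran down to -0.28 over the alternatives, so the opposite signs of UTP6 depend on the scaling.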

How the results depend on the processing

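No paired analysis was possible because each group holds 1 library, and for the same reason no library could be left out. Under the 8 alternatives, 58 counts of members past 2-fold were within 1.5 times the count as deposited and 22 were not, and the cause was not tested. TPM scaling gave 1 member higher and 9 lower between the media in the wild type, where 14.1% and 21.1% of all rows were. It gave 52 higher and 0 lower in the mutant against the wild type in B medium, where 44.3% and 6.29% of all rows were. With cysteine it gave 12 higher and 1 lower, where 27.7% and 2.21% of all rows were. It gave 11 larger and 0 smaller responses in the mutant, where 18.6% and 12.6% of all rows had them. Median-of-ratios scaling gave 7 higher and 2 lower between the strains in B medium, where 14.9% and 18.8% of all rows were. It gave 5 lower between the media in the wild type, where 15.9% of all rows were. Scaling to rows of at least 600 bases gave 7 higher and 2 lower between the strains in B medium. Of all rows, 14.3% and 19.2% were. This scaling gave 0 lower between the media in the mutant, where 10.7% of all rows were. A pseudocount of 5 gave 2 higher and 2 lower between the strains in B medium, where 9.10% and 22.4% of all rows were. It gave 0 higher between the strains with cysteine, where 5.09% of all rows were. It gave 2 larger responses in the mutant, where 9.92% of all rows had them. Between the media in the mutant it gave 0 lower, where 10.7% of all rows were. Removal of the span trend gave 7 larger responses in the mutant, where 15% of all rows had them. It gave 6 lower between the media in the wild type, where 16% of all rows were. Between the strains in B medium it gave 0 lower, where 16% of all rows were. The median of the members less that of all rows was -0.0022 for the wild-type media and turned to 0.012 with the span trend removed, 0.015 at a mean of at least 10 FPKM and 0.022 with no filter. With the span trend removed this quantity was 0.18 between the strains in B medium, against 0.30 as deposited, and 0.37 for the difference of responses, against 0.49. TPM scaling left 26 of the 85 genes within 2-fold in all 4 pair comparisons, against 64 as deposited. Of the genes past 2-fold, 7 of 10 were so under every setting between the media in the mutant, 3 of 8 in the wild type, 2 of 8 between the strains in B medium, 1 of 4 with cysteine, and 2 of 8 in the difference of responses. SLX9 and NET1 changed sign between the strains in B medium under some settings. Without replicates or depth, no difference can be set against sampling error.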
